A study of Homo sapiens with 4 samples.

Results

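Expression of 10 AP-1 and immediate early genes was read in the established human medulloblastoma line Daoy after infection with a lentivirus against the fatty acid binding protein gene FABP4 or with the control virus. The 10 genes were taken by name from the 59384 gene names of the count table: FOS, FOSB, FOSL1 and FOSL2 (Fos family), JUN, JUNB and JUND (Jun family), EGR1, IER2 and IER3. The control group, pLKO, is labelled WT and infected with PLKO virus (2 libraries), and the shFABP4 group is labelled FABP4 knockdown and infected with shFABP4 virus (2 libraries). Both groups are Daoy cells carrying a lentivirus, with no time after infection and no hairpin sequence given in the labels. Whether the paired libraries of each group derive from independent cultures is not stated, and the p-values therefore reflect library-to-library spread that could be technical.

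AP-1 is a dimer of leucine zipper proteins in which a Fos family protein must pair with a partner such as a Jun family protein, while Jun proteins can also pair with each other. Together with EGR1, IER2 and IER3, several of these genes belong to the immediate early genes, which are transcribed from pre-existing transcription factors soon after a growth factor or stress signal and whose mRNAs are short-lived. FOSL1 (Fra-1), FOSL2 (Fra-2) and JUND persist longer and are common in tumour lines with continued MAP kinase signalling.

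Total counted fragments were 8988961 and 13839885 in pLKO 1 and 2, 2539862 in shFABP4 1 and 20431660 in shFABP4 2. The shallowest library, shFABP4 1, stood apart: 51762 gene names held a fragment there, against 22350 to 25560 in the other libraries, and genes silent elsewhere held 3.81 to 18.9 fragments per kb of exon depending on GC content. That rate gives the background expected for a gene in shFABP4 1, 54.6% of the library in sum, and it is a rough guide. Among 1067 silent genes with at least 20 expected fragments, the counted number was 0.783 times the expected at the median and 0 to 2.90 times between the 5th and 95th percentile. FABP4 itself had 1, 6, 14 and 0 fragments in pLKO 1, pLKO 2, shFABP4 1 and shFABP4 2. Its count in the library labelled shFABP4 1 goes against the label, though 5.21 of the 14 fragments were expected from background. Counts this low do not settle whether FABP4 was knocked down in either shFABP4 library. Of 10 neural markers, OTX2 and ATOH1 had 0 fragments in both pLKO libraries, and NES (35 and 69) was the highest. Among the mesenchymal and epithelial markers VIM (13811 and 21475) and KRT8 (9068 and 14078) were abundant, while THY1 (0 and 0), CDH1 (0 and 2) and KRT5 (0 and 2) were at or near 0. Summed neural markers stood at 9.68 and 10.3 CPM (fragments scaled to a common library total) in pLKO, 442 in shFABP4 1 and 19.7 in shFABP4 2. That last sum came mostly from NES (180 fragments) and GFAP (165). Summed blood markers (18.4 and 15.2 in pLKO) and adipocyte markers (11.6 and 14.96) were also higher in shFABP4 1, at 122 and 107, and not in shFABP4 2, at 14.8 and 11.7. The part of these marker levels in the results was not tested.

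In pLKO cells FOSL1 was the most abundant of the 10 genes per length of exon, and the classical immediate early genes FOS, FOSB and EGR1 were at low levels. As CPM per kb of exon (mean ± SD, n = 2), the levels in pLKO were 138 ± 0.766 for FOSL1, 82.5 ± 1.46 for JUND, 50.7 ± 1.42 for JUNB and 29.2 ± 0.00698 for IER2. They were 10.7 ± 0.610 for FOSL2, 7.14 ± 0.882 for JUN and 3.20 ± 0.324 for IER3. EGR1 stood at 0.630 ± 0.0116, FOSB at 0.237 ± 0.0516 and FOS at 0.214 ± 0.142. The order of the first 8 was the same in both pLKO libraries, and FOS and FOSB changed places, their levels lying within each other's spread. FOSL1 was above 97.8% of coding genes in either pLKO library, while FOS was above 46.1% and 36.3%.

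**Figure D1:**
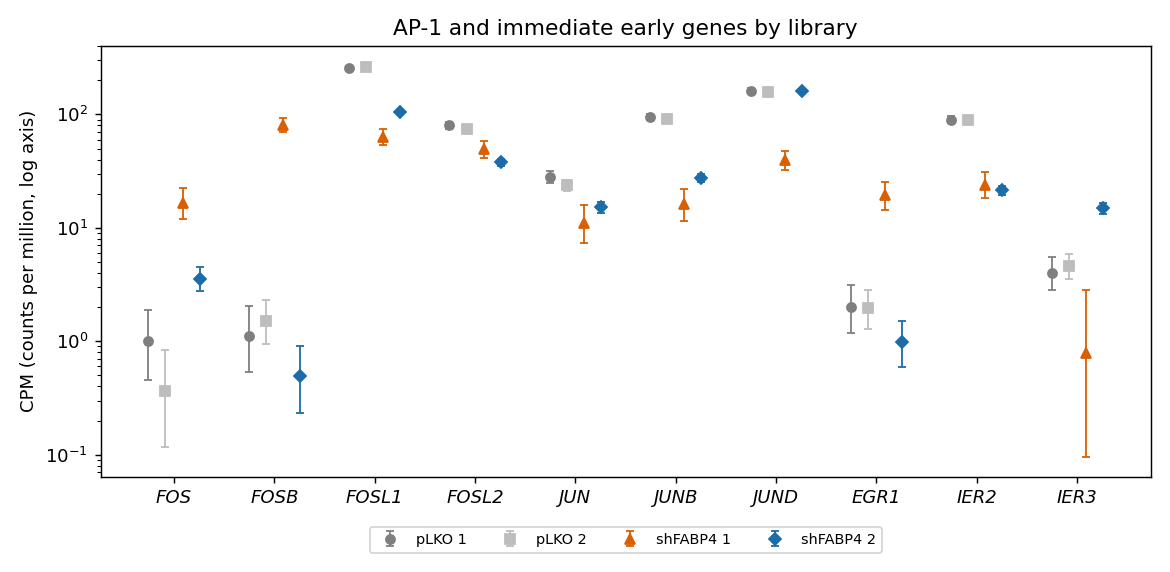
CPM on a log axis for the 10 genes in pLKO 1, pLKO 2, shFABP4 1 and shFABP4 2, with exact 95% Poisson intervals that cover counting error only. The pLKO pair nearly coincides for every gene except FOS (1.001 and 0.361), and FOSB, EGR1 and IER3 show the shFABP4 libraries on opposite sides of pLKO.

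Setting shFABP4 against pLKO asks which of these transcripts differ when FABP4 is targeted. FOSL1, JUNB and IER2 were lower in both shFABP4 libraries than in both pLKO libraries, and FOS was higher, on each of the 6 scalings computed. In shFABP4 1, however, FOS, JUNB and IER2 held 1.24, 1.19 and 1.05 times their expected background. Those counts lie inside the 5th to 95th percentile range of silent genes and cannot be told from background. None of the 10 passed the test across all genes: edgeR's quasi-likelihood test called 0 of 10 at an adjusted p of 0.05, as it called 0 of all 14735 genes tested (0%). An unadjusted p under 0.05 was reached by 4 members, FOS, FOSL2, JUNB and IER2, against 12.3% of all genes. DESeq2 called JUNB and IER2 lower (2 of 10 members, against 1.21% of genes called lower and 5.08% in either direction), and limma-voom called 0. All 10 passed the low-count filter, which needed 0.876 CPM in 2 libraries. FOS reached that level in 1 pLKO library and both shFABP4 libraries, so its place among the tested genes rests on shFABP4.

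Values were set on 4 main scales because library totals, TMM (a trimmed mean scaling over all tested genes) and scaling by 1047 abundant coding genes (high-signal genes) place shFABP4 1 differently. For a high-signal gene, the RNA expected in shFABP4 1 from its share in the other libraries was at least 5 times its expected background. The counted fragments could be fewer: the high-signal members FOSL1 and JUND held 4.49 and 2.75 times background there. The median log2 fold change of all tested genes was 0.34 with TMM, 1.30 with library totals, 2.33 with high-signal scaling and 1.02 with high-signal scaling after background subtraction. With TMM both shFABP4 libraries lay below both pLKO libraries for 6 of 10 members (26.1% of all tested genes) and above for 1 (28.5%). With library totals these were 5 (15.9%) and 1 (43.3%). Scaled by high-signal genes they were 3 (4.80%) and 1 (59.0%), and with background subtracted as well 5 (14.3%) and 1 (40.8%). On all 4 scales the member above was FOS.

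**Figure D2:**
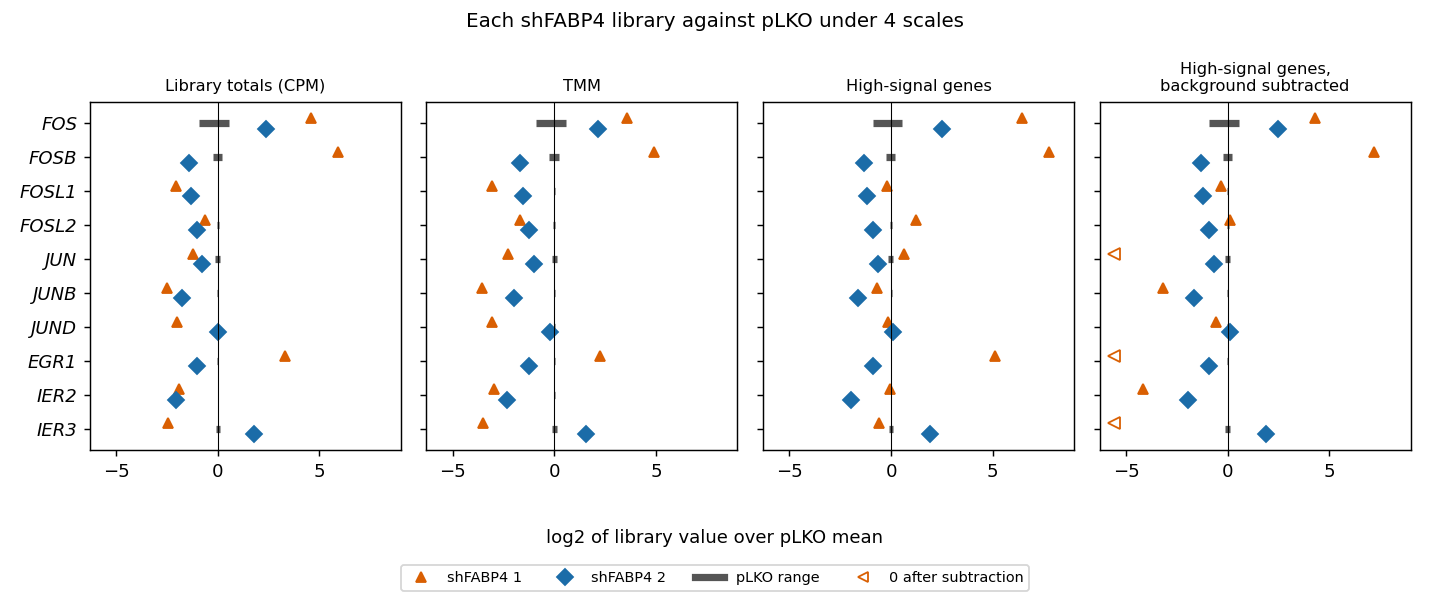
The log2 ratio of each shFABP4 library to the pLKO mean for the 10 genes, on 4 scales, with the pLKO range as a grey bar and open triangles where subtraction left 0. FOSL1, JUNB and IER2 lie left of pLKO in both libraries in every panel and FOS lies right of it, while FOSL2, JUN and EGR1 change side with the scale in shFABP4 1 and JUND does so in shFABP4 2.

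Among the Fos family, FOSL1 (chromosome 11, 65892049 to 65900573, minus strand, GRCh38, 1887 exon bases) was counted 2325 and 3608 times in pLKO 1 and 2, 160 times in shFABP4 1 and 2144 times in shFABP4 2. That corresponds to 259 and 261 CPM in pLKO against 63.0 and 105 in shFABP4. Both shFABP4 libraries were well below a tight pLKO pair. The edgeR fit gave a log2 fold change of -2.12 (SE 0.83) at an adjusted p of 0.391. On the high-signal scale the gap was wide only in shFABP4 2, with 420 and 425 CPM in pLKO (here with high-signal fragments as the total) against 368 in shFABP4 1 and 184 in shFABP4 2. Among high-signal genes alone FOSL1 stood at -0.66 (adjusted p = 0.229, edgeR) and was not among the 35.6% called. FOSL1 held 4.49 times its expected background in shFABP4 1 (160 fragments against 35.6), the highest multiple of the 10 genes and the only one above the 95th percentile of silent genes. The pseudogene FOSL1P1 had 3, 0, 11 and 0 fragments, so it took few fragments of its own.

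FOSL2 (chromosome 2, 28392448 to 28417317, plus strand, 7162 exon bases) was counted 718 and 1020 times in pLKO 1 and 2, 125 times in shFABP4 1 and 777 times in shFABP4 2. By library totals the CPM were 79.9 and 73.7 against 49.2 and 38.03, with no overlap between groups. The edgeR fit gave a log2 fold change of -1.46 (SE 0.49) at an adjusted p of 0.391. Its side in shFABP4 1 turned on the high-signal scale, where it read 130 and 120 in pLKO and 288 in shFABP4 1, or 132 after subtraction of 76.3 expected background fragments. In shFABP4 2 it was below pLKO on all 4 scales (66.8 on the high-signal scale).

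FOS (chromosome 14, 75278826 to 75282230, plus strand, 3186 exon bases), the founding member and a fast responder to serum, was counted 9 and 5 times in pLKO 1 and 2, 42 times in shFABP4 1 and 73 times in shFABP4 2. In CPM the values were 1.001 (95% Poisson interval 0.458 to 1.90) and 0.361 (0.117 to 0.843) in pLKO against 16.5 (11.9 to 22.4) and 3.57 (2.80 to 4.49) in shFABP4. Both shFABP4 intervals lay above both pLKO intervals, with no background taken off. In shFABP4 1, 33.9 of the 42 fragments were expected from background, so the count there is 1.24 times background. That multiple is inside the 5th to 95th percentile range of silent genes. The edgeR fit gave a log2 fold change of 3.01 (SE 0.99) at an adjusted p of 0.391. FOS stayed a minor member of its family in shFABP4 2, at 2.43% of Fos family fragments (exact binomial interval 1.91 to 3.05) against 0.294% (0.134 to 0.557) and 0.107% (0.0349 to 0.251) in pLKO.

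FOSB (chromosome 19, 45467995 to 45475179, plus strand, 5553 exon bases), a relative of FOS induced by similar signals, was counted 10 and 21 times in pLKO 1 and 2, 204 times in shFABP4 1 and 10 times in shFABP4 2. As CPM the levels were 1.11 and 1.52 in pLKO, 80.3 in shFABP4 1 and 0.489 in shFABP4 2. Both shFABP4 libraries stood on opposite sides of pLKO on all 4 scales. The 204 fragments of shFABP4 1 were 2.27 times the 90.1 expected from background, inside the 5th to 95th percentile range of silent genes, and FOSB took 38.4% of Fos family fragments there. The fitted log2 fold change in edgeR, 3.87 (SE 2.06, adjusted p = 0.411), became -1.68 without shFABP4 1.

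Among the Jun family, JUNB (chromosome 19, 12791486 to 12793315, plus strand, 1830 exon bases), an AP-1 partner that responds early to signals, was counted 850 and 1258 times in pLKO 1 and 2, 41 times in shFABP4 1 and 561 times in shFABP4 2. By library totals the CPM were 94.6 and 90.9 against 16.1 and 27.5. The shFABP4 values were below pLKO on every scale, at -2.57 in edgeR (log2 fold change, SE 0.73, adjusted p = 0.391) and at -2.65 in DESeq2 (SE 0.87, adjusted p = 0.0474). JUNB in shFABP4 1 held 1.19 times its expected background of 34.5 fragments. The opposite-strand gene HOOK2 overlaps 14.2% of the JUNB exon bases and had 356, 551, 188 and 842 fragments. Counting set no strand option, so reads in the overlap cannot be assigned to either gene.

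JUND (chromosome 19, 18279694 to 18281622, minus strand, 1929 exon bases), the Jun protein common in resting cells, was counted 1449 and 2176 times in pLKO 1 and 2, 100 times in shFABP4 1 and 3259 times in shFABP4 2. In CPM the values were 161 and 157 in pLKO, 39.4 in shFABP4 1 and 160 in shFABP4 2. JUND in shFABP4 2 thus lay inside the pLKO pair by library totals, below it with TMM (184 against 220 and 216) and above it on the high-signal scale (280 against 261 and 256). In edgeR the log2 fold change was -1.05 over all genes (SE 1.07, adjusted p = 0.606) and -0.01 among high-signal genes (adjusted p = 0.975).

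JUN (chromosome 1, 58776845 to 58784048, minus strand, 3624 exon bases), the founding Jun protein, was the least abundant of its family, counted 253 and 327 times in pLKO, 28 times in shFABP4 1 and 311 times in shFABP4 2. As CPM the levels were 28.1 and 23.6 against 11.0 and 15.2. The groups did not overlap by library totals or TMM (edgeR log2 fold change -1.50, SE 0.61, adjusted p = 0.392). On the high-signal scale JUN in shFABP4 1 (64.4) lay above pLKO (45.7 and 38.5), and its 28 fragments were fewer than the 58.8 expected from background.

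Ratios within a library need no scaling between libraries. JUND made up 56.8% and 57.9% of Jun family fragments in pLKO and 78.9% in shFABP4 2 (exact 95% interval 77.6 to 80.1), while JUNB went from 33.3% and 33.4% to 13.6% (12.5 to 14.7). JUN took 9.91% and 8.69% in pLKO and 7.53% in shFABP4 2. In shFABP4 1 the shares of JUN, JUNB and JUND were 16.6% (11.3 to 23.0), 24.3% (18.0 to 31.4) and 59.2% (51.4 to 66.7), on 169 fragments that include background. The background expected there was 58.8, 34.5 and 36.4 fragments for JUN, JUNB and JUND, most of the 169, so these shares do not give the make-up of the RNA. JUND fragments per FOSL1 fragment numbered 0.623 and 0.603 in pLKO, 0.625 in shFABP4 1 (0.482 to 0.807) and 1.52 in shFABP4 2 (1.44 to 1.61). The interval of shFABP4 1 held both pLKO ratios, and that of shFABP4 2 lay above them. Of the shFABP4 1 fragments, 36.4 of 100 for JUND and 35.6 of 160 for FOSL1 were expected from background. JUNB per FOSL1 was lower in both shFABP4 libraries, at 0.256 (0.177 to 0.363) and 0.262 (0.238 to 0.287) against 0.366 (0.338 to 0.396) and 0.349 (0.327 to 0.372). The interval of shFABP4 1 overlapped both pLKO intervals. With 2 libraries a group, an exact permutation test (two-sided) cannot go below p = 0.333, so no test of these shares was made.

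**Figure D3:**
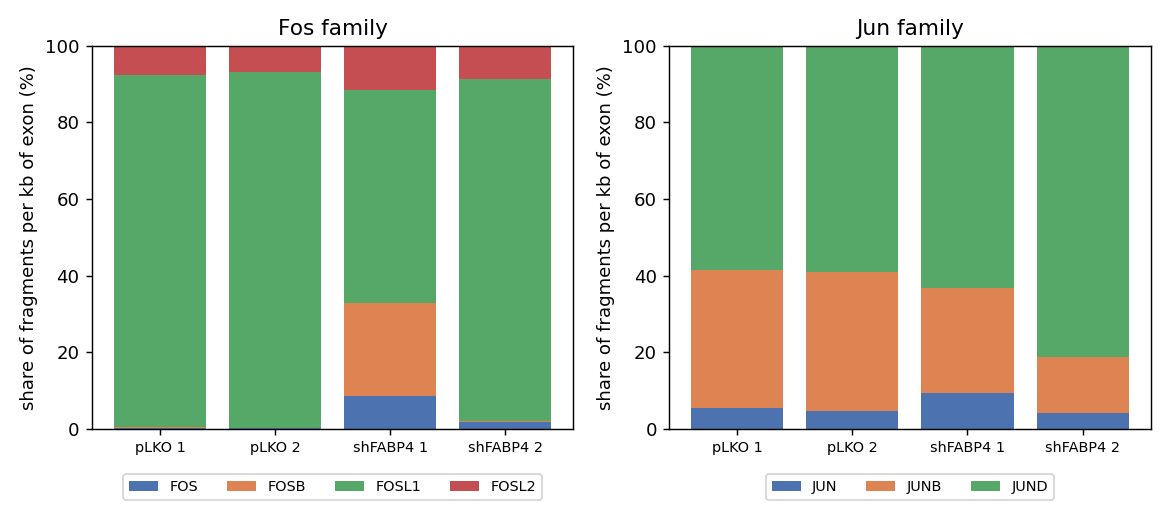
Share of each gene among the fragments per kb of exon of the Fos family (left) and Jun family (right) in the 4 libraries, in percent. The shares of shFABP4 1 include its background. JUND takes 58.4% and 59.2% of the Jun family in pLKO, 63.2% in shFABP4 1 and 81.2% in shFABP4 2, and FOSL1 takes 92.2% and 92.8% of the Fos family in pLKO, 55.7% in shFABP4 1 and 89.5% in shFABP4 2.

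Of the other immediate early genes, IER2 (chromosome 19, 13150411 to 13154911, plus strand, 3079 exon bases), a nuclear protein induced by growth factors, was counted 809 and 1246 times in pLKO 1 and 2, 61 times in shFABP4 1 and 439 times in shFABP4 2. By library totals the CPM were 90.0 and 90.0 against 24.0 and 21.5. IER2 had the smallest p of the 10 genes (log2 fold change -2.59, SE 0.53, adjusted p = 0.391 in edgeR), and DESeq2 placed it at -2.67 (SE 0.81, adjusted p = 0.0280). On the high-signal scale shFABP4 1 lay just under pLKO (140 against 146 and 147) and shFABP4 2 at 37.7. The 61 fragments of shFABP4 1 were 1.05 times its expected background of 58.1. IER2 shares 30.7% and 21.5% of its exon bases with the opposite-strand genes CTC-250I14.6 and CTC-250I14.7, which had 0 fragments in every library. With no strand option set, those 0 counts do not show how reads in the overlaps were assigned, and IER2 may be undercounted.

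EGR1 (chromosome 5, 138465479 to 138469303, plus strand, 3137 exon bases), a zinc finger factor and a standard readout of ERK signalling, was counted 18 and 27 times in pLKO 1 and 2, 49 times in shFABP4 1 and 20 times in shFABP4 2. In CPM the values were 2.002 (1.19 to 3.16) and 1.95 (1.29 to 2.84) in pLKO, 19.3 in shFABP4 1 and 0.979 (0.598 to 1.51) in shFABP4 2. The shFABP4 1 count was 0.963 times the background expected there (50.9), and the value in shFABP4 2 was the lowest of the 4 libraries. The fitted log2 fold change in edgeR, 1.33 (SE 1.28, adjusted p = 0.584), became -1.25 without shFABP4 1.

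IER3 (chromosome 6, 30743199 to 30744548, minus strand, 1350 exon bases), a stress-induced regulator of cell survival, was counted 36 and 64 times in pLKO 1 and 2, 2 times in shFABP4 1 and 305 times in shFABP4 2. As CPM the levels were 4.005 and 4.62 in pLKO, 0.787 (0.0954 to 2.84) in shFABP4 1 and 14.9 (13.3 to 16.7) in shFABP4 2. So pLKO lay between shFABP4 1 and shFABP4 2 (edgeR log2 fold change 0.61, SE 1.48, adjusted p = 0.837). IER3 per IER2 fragment went from 0.0445 and 0.0514 in pLKO to 0.695 (0.598 to 0.806) in shFABP4 2. In shFABP4 1 it was 0.0328, with an interval (0.00388 to 0.124) that held both pLKO ratios. That ratio is not informative, since 58.1 of the 61 IER2 fragments there were expected from background. Its 2 fragments in shFABP4 1 were 0.0914 times the 21.9 expected from background. IER3-AS1 and HCG20, on the opposite strand, overlap 26.6% and 6.30% of its exon bases and held at most 4 and 19 fragments. The same limit on reads in the overlaps applies here.

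**Figure D4:**
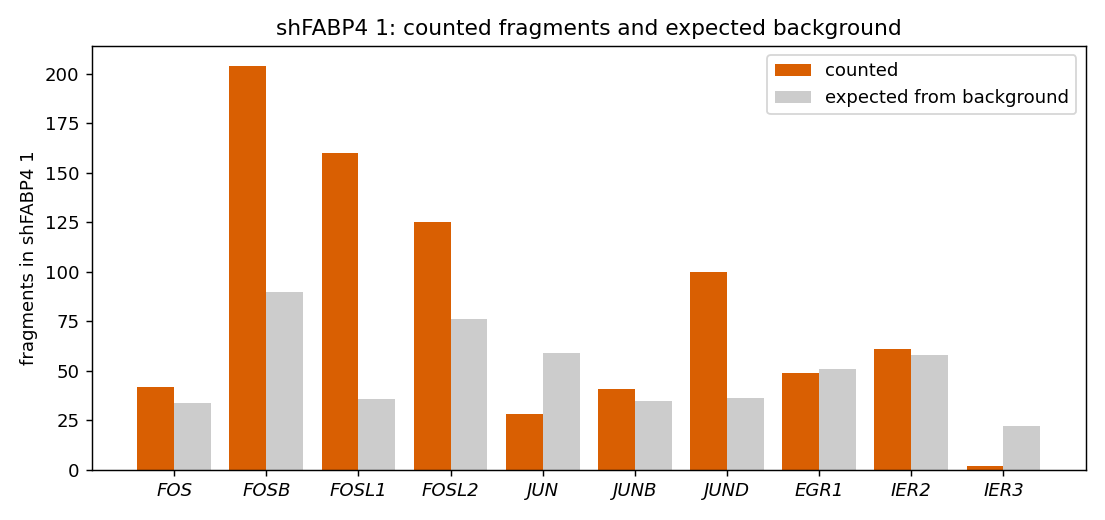
Fragments counted in shFABP4 1 for the 10 genes (orange) beside the number expected from background at each gene's exon length and GC content (grey). FOSL1 (160 against 35.6), JUND (100 against 36.4) and FOSB (204 against 90.1) stand farthest above background, and JUN (28 against 58.8) and IER3 (2 against 21.9) are below it.

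With shFABP4 1 left out, shFABP4 2 was set against the pLKO pair and was assumed to vary as little as that pair. In that fit edgeR called 10 of 10 members, where it called 66.9% of 15301 genes. Of these, 8 were lower (32.7% of genes) and 2 higher (34.2%). The median log2 fold change was -1.25 over the members and 0.04 over all genes. The lower members ran from IER2 (-2.31, SE 0.08), JUNB (-2.00, SE 0.08) and FOSL1 (-1.55, SE 0.05) through FOSL2 (-1.25, SE 0.08) and JUN (-0.998, SE 0.14) to JUND (-0.24, SE 0.05). FOSB (-1.68, SE 0.66) and EGR1 (-1.25, SE 0.48) were lower on 10 and 20 fragments, and the higher members were FOS (2.27, SE 0.45) and IER3 (1.53, SE 0.20). These calls compare 1 shFABP4 library with pLKO. With shFABP4 2 left out all 10 were called too, against 85.9% of 27830 genes, 3 of them higher (FOS, FOSB and EGR1; 56.6% of genes) and 7 lower (29.3%).

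The sequences just upstream of the members whose shFABP4 libraries lay on the same side of pLKO on every scale are shown beside JUND, which parted from JUNB, and EGR1, where serum response sites are well known. They are the 250 bases before the RefSeq start (GRCh38.p14), 5′ to 3′, with capitals for TGACG on either strand (the core of a CRE, the site of ATF and CREB proteins) and for the CArG box, the site of serum response factor. Of the 10 members 8 matched the promoter table, and FOSL1 and IER3 did not.
JUNB, chr19:12791236-12791485, plus strand: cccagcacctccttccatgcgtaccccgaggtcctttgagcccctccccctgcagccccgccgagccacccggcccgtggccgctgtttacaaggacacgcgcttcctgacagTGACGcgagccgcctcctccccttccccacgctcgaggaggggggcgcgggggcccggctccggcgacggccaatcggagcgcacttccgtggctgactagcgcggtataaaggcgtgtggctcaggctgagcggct
IER2, chr19:13150161-13150410, plus strand: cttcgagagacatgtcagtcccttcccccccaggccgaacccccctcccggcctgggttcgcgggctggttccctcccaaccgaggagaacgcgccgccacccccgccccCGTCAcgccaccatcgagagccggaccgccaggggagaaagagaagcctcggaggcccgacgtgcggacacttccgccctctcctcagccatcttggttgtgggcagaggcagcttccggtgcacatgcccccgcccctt
FOS, chr14:75278578-75278827, plus strand: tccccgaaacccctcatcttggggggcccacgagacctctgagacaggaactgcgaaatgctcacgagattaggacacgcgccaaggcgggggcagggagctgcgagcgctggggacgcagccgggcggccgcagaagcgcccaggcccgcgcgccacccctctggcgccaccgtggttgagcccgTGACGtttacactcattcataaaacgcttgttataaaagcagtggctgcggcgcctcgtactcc
JUND, chr19:18281623-18281872, minus strand: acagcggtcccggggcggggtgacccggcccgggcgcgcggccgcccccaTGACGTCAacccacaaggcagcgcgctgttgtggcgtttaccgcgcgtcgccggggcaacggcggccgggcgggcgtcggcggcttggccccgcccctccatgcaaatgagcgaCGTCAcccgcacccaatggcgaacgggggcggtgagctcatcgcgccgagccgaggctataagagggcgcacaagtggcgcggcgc
EGR1, chr5:138465229-138465478, plus strand: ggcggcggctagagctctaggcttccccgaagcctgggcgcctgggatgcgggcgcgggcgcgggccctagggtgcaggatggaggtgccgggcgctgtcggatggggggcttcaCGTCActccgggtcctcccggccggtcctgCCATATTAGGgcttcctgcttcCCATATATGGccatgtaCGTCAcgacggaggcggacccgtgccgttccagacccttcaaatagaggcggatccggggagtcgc
TGACG was present on at least 1 strand in 8 of 8 matched members, against 21.7% of 27305 promoters of the same length. The full CRE, TGACGTCA, which holds TGACG on both strands, was present in JUND only (1.77% of promoters), from 200 to 193 bases before the start. Within these 250 bases the CArG box was present in EGR1 only, in 2 copies (1.14% of promoters), at 105 to 96 and 83 to 74 bases before the start. Bases farther upstream were not searched, so a CArG box there, in FOS or another member, would be missed. TATAA, searched on both strands, was in FOS, FOSB, JUNB and JUND (19.6% of promoters). The AP-1 site, TGACTCA or TGAGTCA, was in 0 of 8 (4.16% of promoters). These matches describe letters in the window, and members that lay lower (JUNB, IER2) and higher (FOS) both held TGACG.

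Genes around AP-1 were read from 5 further lists. In edgeR no gene of these lists was called (0 of 29 other immediate early genes, 0 of 13 other bZIP partners, 0 of 27 upstream kinases and serum response factors, 0 of 13 EGR1 corepressors and turnover genes, and 0 of 26 AP-1 targets). Median log2 fold changes were -0.16, 0.42, 0.22, 0.29 and -0.43 in that order, against 0.34 over all tested genes. The genes named next are those with the smallest p in each list, with TMM-normalised CPM for pLKO 1, pLKO 2, shFABP4 1 and shFABP4 2. Of these genes only IL11 (240 fragments against 43.4 expected) and BATF3 (61 against 19.8) lay above the 95th percentile of silent genes in shFABP4 1. The shFABP4 1 counts of the others, EGFR included, cannot be told from background, whatever their side of pLKO.

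Among the other immediate early genes 5 of 29 lay above both pLKO libraries and 11 below with TMM (28.5% and 26.1% of all tested genes), and 10 above and 9 below on the background-subtracted high-signal scale (40.8% and 14.3%). The same shares of all genes apply to the next 4 lists. ATF3, a stress-induced bZIP factor that pairs with Jun, read 3.33, 1.59, 13.0 and 14.7, higher in both shFABP4 libraries on all 4 scales (log2 fold change 2.50, SE 0.68, adjusted p = 0.391, edgeR). Of its 50 fragments in shFABP4 1, 31.2 were expected from background. GADD45B, a stress-response gene, read 173, 178, 16.9 and 50.6, lower on all 4 scales (-2.38, SE 0.75, adjusted p = 0.391, edgeR). Of its 65 fragments in shFABP4 1, 34.7 were expected from background. KLF4 read 1.67, 2.08, 10.2 and 11.1, and in shFABP4 1 its 39 fragments equalled the expected background of 39.0. KLF10 read 28.0, 31.6, 12.2 and 11.5, and in shFABP4 1 it lay above pLKO on both high-signal scales.

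Among the other bZIP partners 4 of 13 lay above and 2 below with TMM, and 9 above and 2 below on the background-subtracted high-signal scale. BATF3, which pairs with Jun proteins, read 121, 126, 15.9 and 44.5, lower on all 4 scales (-2.03, SE 0.70, adjusted p = 0.391, edgeR). ATF2, which can pair with JUN, read 4.70, 2.77, 10.9 and 11.1, higher on all 4 scales, as were CREB5 and MAFK. In shFABP4 1 the expected background was 21.9 of 42 ATF2 fragments, 44.5 of 64 CREB5 fragments and 84.4 of 95 MAFK fragments.

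Of the upstream kinases and serum response factors 8 of 27 lay above and 9 below with TMM, and 11 above and 7 below with background subtracted, so the balance turned. EGFR, the epidermal growth factor receptor, read 7.73, 9.71, 56.3 and 55.3, higher on all 4 scales (2.68, SE 0.47, adjusted p = 0.391, edgeR), with 216 fragments in shFABP4 1 against 96.6 expected from background. ELK1, the ERK-responsive partner of serum response factor, read 27.4, 26.5, 4.69 and 3.39 (-2.75, SE 0.51, adjusted p = 0.391, edgeR). MAP2K7, a kinase that activates JNK, read 203, 190, 37.5 and 27.0. Both ELK1 and MAP2K7 overlapped pLKO on the unsubtracted high-signal scale. In shFABP4 1 the 18 ELK1 fragments were fewer than the 55.1 expected from background, and 97.1 of 144 MAP2K7 fragments were expected. MRTFB, a coactivator of serum response factor, read 9.09, 6.73, 30.5 and 26.8, higher on all 4 scales, with 117 fragments in shFABP4 1 against 83.6 expected.

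Of the EGR1 corepressors and AP-1 turnover genes 6 of 13 lay above and 1 below with TMM, and 8 above and 1 below with background subtracted. The EGR1 corepressor NAB1 read 3.18, 1.59, 9.12 and 4.46, and ZFP36L2, an mRNA decay factor, read 1.52, 1.19, 15.1 and 5.14, both higher on all 4 scales. ZFP36L2 had 10 and 12 fragments in pLKO, and pLKO 2 fell short of the low-count filter. Its place among the tested genes, like that of FOS, therefore rests on shFABP4. The CCR4-NOT scaffold CNOT1 (5.46, 3.96, 32.6 and 9.76) was higher on all 4 scales as well. In shFABP4 1 the expected background was 18.6 of 35 NAB1 fragments, 39.3 of 58 ZFP36L2 fragments and 83.8 of 125 CNOT1 fragments. XRN1, a 5′ exonuclease, read 2.88, 2.18, 8.60 and 3.84, and in shFABP4 1 its 33 fragments were below the 45.6 expected.

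Of the AP-1 targets 3 of 26 lay above and 10 below with TMM, and 13 above and 8 below with background subtracted, so here too the balance turned. The cytokine IL11 read 8.34, 7.13, 62.5 and 38.4, higher on all 4 scales, with 240 fragments in shFABP4 1 against 43.4 expected (2.70, SE 0.52, adjusted p = 0.391, edgeR). DUSP5, a nuclear ERK phosphatase, read 60.02, 59.0, 7.82 and 14.96, and the haem oxygenase HMOX1 read 193, 198, 26.1 and 68.7, both lower on all 4 scales. In shFABP4 1 the 30 DUSP5 fragments were fewer than the 41.1 expected from background, and 37.4 of 100 HMOX1 fragments were expected. The matrix glycoprotein TNC read 8.49, 8.42, 34.4 and 17.7, higher on all 4 scales, with 132 fragments in shFABP4 1 against 103 expected. In shFABP4 2 alone against pLKO, 13 of 26 AP-1 targets were called higher and 11 lower (34.2% and 32.7% of all genes), so the list went both ways.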

How the data were processed

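RNA was sequenced from 4 Daoy libraries, 2 per group, grouped by their titles. The authors' deposited table holds raw fragment counts and exon lengths by gene name, made with featureCounts 2.0.0 over GENCODE 38 exons without a strand option, per the file headers. The submitters' processing notes list FastQC, HISAT, StringTie and GRCh38. A row broken over 7 lines (ANK2) was left out. The members and lists were chosen with earlier results of these data known. All members are named, with up to 4 genes of smallest p from each of 5 lists (mean of at least 20 counts).

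The main test was the two-sided quasi-likelihood F test of edgeR 4.0.16 under R 4.3.3 (robust fit, TMM, filterByExpr at 10 counts and a total of 15, Benjamini-Hochberg over all genes, threshold 0.05). SE is the log2 fold change over the square root of F. DESeq2 1.42.0 and limma 3.58.1 (voom) were alternatives. Background in shFABP4 1 came from 2655 coding genes (GENCODE 29 types) with no fragment elsewhere, as fragments per kb in GC bins, with GC from the longest transcript. Expected RNA for high-signal genes used the mean share in the other 3 libraries, shFABP4 2 included. Sequencing depth limits precision through the Poisson (exact, 95%) and binomial (Clopper-Pearson) intervals, which cover counting error only. The pLKO pair differed by more than counting error: over 13291 genes its chi-square was 2.16 per degree of freedom. This value cannot tell separate cultures from the same RNA prepared or sequenced again. The edgeR script was tested on simulated data.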

Additional observations from a re-analysis of the deposited data

How the results depend on the processing

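No gene passed in edgeR with all 4 libraries, and none passed with RLE, upper-quartile, library-total or high-signal scaling, with background subtracted (either scaling) or in limma-voom. Without a low-count filter 69 genes passed, in DESeq2 719, and among high-signal genes only 373. Leaving out 1 library at a time gave 0 to 23895 genes and 0 to 10 members. Both pLKO leave-outs gave 0. DESeq2 called 2 members and every other setting with all libraries called 0. With the replicate block 28 genes and 0 members passed. The labels give no pairing beyond the replicate numbers. The correlation of same-numbered deviations across genes was 0.0106. It cannot decide on pairing, because the background of shFABP4 1 enters the shFABP4 deviations.

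FOS, FOSL1, JUNB, JUND and IER2 kept their sign in every setting in which they were tested. FOSB turned to -0.22 in limma-voom and ranged from -1.68 to 3.63 with 1 library left out. FOSL2 (0.50) and JUN (0.10) turned with high-signal scaling. EGR1 turned to -0.47 in limma-voom, to -1.81 with background subtracted and to -1.22 with high-signal scaling added (chosen after seeing the data), and ranged from -1.25 to 1.04 with 1 library left out. IER3 turned to -0.64 with the replicate block and ranged from -4.63 to 1.53 with 1 library left out. The cause was not tested. The depth of shFABP4 1 limits FOS, JUN, JUNB, EGR1 and IER3, each under 50 fragments there.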
